A study of Homo sapiens with 8 samples.

Results

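The forkhead box O (FOXO) transcription factors and a set of genes they are known to activate were followed in LM2 breast cancer cells given the kinase inhibitor Ponatinib or short hairpin RNAs (shRNAs) against the ABL kinases. The 10 genes were chosen by name with earlier results of these data known. They were FOXO1, FOXO3, FOXO4, IRS2, INSR, CCNG2, SESN1, SESN3, BCL6 and PIK3IP1. Each was matched by symbol to 1 Ensembl gene, so that 10 of 58688 gene rows were used, and all 10 passed the filter on low counts in both experiments.

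LM2 is a lung-tropic derivative of the triple-negative line MDA-MB-231, and all samples were grown in serum-containing DMEM. In the first experiment, 2 samples received the vehicle DMSO and 2 received 1 µmol/L Ponatinib, a multi-kinase inhibitor that also blocks ABL, for 6 h. In the second, lentivirus applied for 48 h with Polybrene delivered a scrambled shRNA (shCtrl), ABL1 shRNA, ABL2 shRNA or both ABL1 and ABL2 shRNAs, with 1 sample each. The knockdown cells were stable lines selected with puromycin and were not given Ponatinib. The labels do not say whether the repeats came from separate cultures, and p-values then measure only the spread between these samples, which may be technical.

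PI3K makes the membrane lipid that activates the kinase AKT. Active AKT phosphorylates FOXO factors, which are then held in the cytoplasm by 14-3-3 proteins, and when AKT is inactive they enter the nucleus and activate genes of growth arrest, stress defence and insulin signalling. This control of FOXO location by AKT makes the mRNAs of these targets a common readout of PI3K-AKT output. Several of the targets also act back on the pathway. PI3K-AKT output is the question put to both experiments here. AKT activity, FOXO phosphorylation and FOXO location were not measured by these files.

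Gene totals ran from 7568934 counts (Ponatinib replicate 2) to 13010896 counts (ABL1 shRNA). VIM, a mesenchymal marker, stood at 2890 to 3150 normalised CPM (TMM-scaled read counts) in the 4 DMSO and Ponatinib samples, PGR had 0 counts in all 8 samples and ESR1 had 3 to 11. CD44 and KRT18 were also present, and both were lower with Ponatinib (log2 fold changes -0.41 and -0.55). ERBB2 was detected at 53.7 to 67.0 normalised CPM in those 4 samples. Of the markers of other cell types, PTPRC, CD3E, CDH5 and ALB had at most 3 counts in any sample. PECAM1, an endothelial and platelet marker, had 18 to 42 counts in the DMSO and Ponatinib samples and 233 to 499 in the shRNA samples, and its part in the results was not tested. ABL1 stood at 190 normalised CPM in shCtrl, 72.9 in the ABL1 knockdown, 203 in the ABL2 knockdown and 109 in the double knockdown, and ABL2 at 236, 213, 93.7 and 148 in the same order. These levels go with the sample labels, although a header line inside the shCtrl counts names the ABL1 knockdown and the one inside the ABL1 shRNA counts names the control. No counts at all were seen in the shRNA samples for 68 genes that had 100 counts or more in each of the other 4, so levels were compared only within an experiment. The shCtrl sample lay over 2-fold from all 3 other shRNA samples at 375 of 16172 genes, against 86 to 197 genes for the other samples, and every knockdown comparison shares it.

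The core of the FOXO binding site reads GTAAACA, and it was searched on both strands (TGTTTAC on the other) in RefSeq promoters of GRCh38.p14, each running from 250 bases before a transcription start to 50 bases after it. It was found in 1202 of 35116 promoters (3.42%), belonging to 1145 of 27305 genes (4.19%). Among the 10 genes it was found for PIK3IP1 and FOXO4, in 2 of their 17 listed promoters. Both promoters are printed 5′ to 3′ with the match in capitals, as those among the 10 genes that hold it. PIK3IP1 had the highest fold change of the 10 with Ponatinib and FOXO4 one of the smallest. The PIK3IP1 promoter lies on the minus strand at chr22:31292439-31292738 and the FOXO4 promoter on the plus strand at chrX:71095601-71095900.
PIK3IP1: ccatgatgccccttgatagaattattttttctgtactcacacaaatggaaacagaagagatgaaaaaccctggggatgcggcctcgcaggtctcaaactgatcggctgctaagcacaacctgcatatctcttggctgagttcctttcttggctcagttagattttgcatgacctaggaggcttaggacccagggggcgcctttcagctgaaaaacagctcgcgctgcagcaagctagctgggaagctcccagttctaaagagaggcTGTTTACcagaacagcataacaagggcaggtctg
FOXO4: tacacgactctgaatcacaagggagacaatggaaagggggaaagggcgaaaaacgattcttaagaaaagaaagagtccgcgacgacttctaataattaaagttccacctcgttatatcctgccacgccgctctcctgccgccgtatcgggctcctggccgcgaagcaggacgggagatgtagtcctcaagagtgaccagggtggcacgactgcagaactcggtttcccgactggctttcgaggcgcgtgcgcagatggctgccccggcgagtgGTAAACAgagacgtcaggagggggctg
The match begins at base 17 in PIK3IP1 and at base 24 in FOXO4, counted with the transcription start as the first base. A match is only these letters in this window, and binding was not measured.

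With Ponatinib, 5 of the 10 genes rose and 0 fell. FOXO1, the insulin-pathway genes INSR and PIK3IP1, the cyclin CCNG2 and the sestrin SESN3 were higher at an adjusted p under 0.05 (edgeR quasi-likelihood test, Benjamini-Hochberg over 16031 genes), against 15.0% of all genes tested that rose and 15.7% that fell. The median log2 fold change was 0.28 over the 10 genes and -0.005 over all genes. Of the 5, 4 (FOXO1, CCNG2, SESN3 and PIK3IP1) also passed another threshold, a fold over 2 with an unadjusted P under 0.05. Upwards, 3.19% of all genes passed it. These RNA pools do not tell a change in transcripts per cell from a change in the share of cells that hold them.

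**Figure D1:**
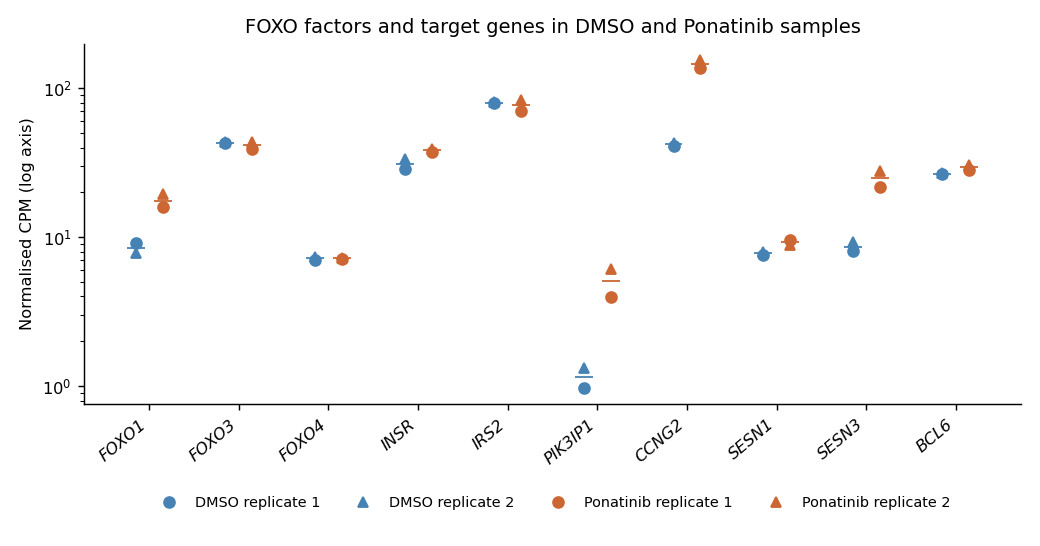
Normalised CPM (log axis) of the 10 genes in the 2 DMSO and 2 Ponatinib samples, 1 point a sample, with a line at each group mean. The Ponatinib points lie above both DMSO points for 7 genes, as they do for 32.1% of all genes tested. The gap is widest for PIK3IP1, CCNG2 and SESN3, and the groups overlap for FOXO3, FOXO4 and IRS2.

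Of the 3 factors, only FOXO1 passed the test. FOXO1 (chromosome 13, 40555667-40666641, minus strand, positions from GENCODE v44 on GRCh38) read 9.12 and 7.80 normalised CPM in DMSO and 15.9 and 19.4 with Ponatinib, a log2 fold change of 1.04 (SE 0.16, edgeR adjusted p = 1.3e-04). Its Ponatinib samples both exceeded the DMSO samples, though the fold of 2.05 sits at the 2-fold line. It dropped to 0.898 on the log2 scale without Ponatinib replicate 2 and reached 1.20 without replicate 1.

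FOXO3 (chromosome 6, 108559835-108684774, plus strand) read 42.9 and 43.5 normalised CPM in DMSO and 39.3 and 43.3 with Ponatinib (log2 fold change -0.07, SE 0.09, edgeR adjusted p = 0.57). FOXO4 (chromosome X, 71095851-71103532, plus strand) read 7.08 and 7.39 normalised CPM in DMSO and 7.13 and 7.29 with Ponatinib (log2 fold change -0.01, SE 0.18, edgeR adjusted p = 0.99). The groups overlapped for both factors. FOXO3B, a near copy of FOXO3 with which reads may be shared, had 43 to 93 counts per sample.

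INSR, the insulin receptor, rose slightly, and IRS2, the adaptor that links the receptor to PI3K, did not pass. INSR (chromosome 19, 7112255-7294414, minus strand) read 28.8 and 33.4 normalised CPM in DMSO and 37.6 and 39.0 with Ponatinib, a log2 fold change of 0.30 (SE 0.10, edgeR adjusted p = 0.030). That call was lost by the DESeq2 Wald test (adjusted p = 0.17) and without DMSO replicate 1 (log2 fold change 0.19, edgeR adjusted p = 0.37), and the adjusted p ran from 0.0091 to 0.37 over the alternatives. IRS2 (chromosome 13, 109752695-109786583, minus strand) read 79.9 and 80.5 normalised CPM in DMSO and 70.6 and 83.0 with Ponatinib (log2 fold change -0.07, SE 0.08, edgeR adjusted p = 0.55). The Ponatinib samples of IRS2 lay on either side of DMSO. On leaving out Ponatinib replicate 1 the value turned to 0.06, and without replicate 2 it passed as lower (-0.19, edgeR adjusted p = 0.045).

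PIK3IP1, a membrane protein that binds PI3K and inhibits it, had the highest fold change of the 10. PIK3IP1 (chromosome 22, 31281594-31292534, minus strand) read 0.974 and 1.32 normalised CPM in DMSO and 3.99 and 6.12 with Ponatinib, a log2 fold change of 2.11 (SE 0.33, fold 4.30, edgeR adjusted p = 1.8e-04). These levels rest on 11 and 13 counts in DMSO and 42 and 47 with Ponatinib, and the Ponatinib samples differ from each other by more than the DMSO samples do. Only 0.368% of the genes tested had a higher log2 fold change.

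CCNG2, which encodes cyclin G2, an atypical cyclin linked to growth arrest, rose 3.45-fold with the smallest SE of the 5. CCNG2 (chromosome 4, 77157207-77433388, plus strand) read 41.2 and 43.1 normalised CPM in DMSO and 137 and 154 with Ponatinib, a log2 fold change of 1.79 (SE 0.08, edgeR adjusted p = 3.0e-10). Each Ponatinib sample was far above both DMSO samples, and leaving out any 1 sample kept the log2 fold change between 1.70 and 1.88.

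The sestrins are stress-induced proteins that restrain mTORC1 signalling, and SESN3 rose while SESN1 did not pass. SESN3 (chromosome 11, 95165513-95232541, minus strand) read 8.05 and 9.22 normalised CPM in DMSO and 21.8 and 28.0 with Ponatinib, a log2 fold change of 1.51 (SE 0.15, fold 2.85, edgeR adjusted p = 2.7e-06). SESN1 (chromosome 6, 108984309-109094846, minus strand) read 7.61 and 8.00 normalised CPM in DMSO and 9.60 and 8.85 with Ponatinib (log2 fold change 0.25, SE 0.16, edgeR adjusted p = 0.28). The groups do not overlap for either gene, which 32.1% of all genes also show in this direction. Opposite-strand genes overlap the exons of SESN1 by 363 bases, BCL6 by 171, IRS2 by 115, SESN3 by 98 and PIK3IP1 by 36. Summed over the DMSO and Ponatinib samples, the one at SESN3 had 21 counts and the rest had 0. Over the shRNA samples the sums were 4, 2, 0, 23 and 2 in the order given. Whether counting used strand is not stated in the sources used here.

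BCL6, a transcriptional repressor that FOXO factors induce in lymphoid and leukaemic cells, did not pass. BCL6 (chromosome 3, 187721377-187745725, minus strand) read 26.5 and 26.9 normalised CPM in DMSO and 28.3 and 30.7 with Ponatinib (log2 fold change 0.14, SE 0.10, edgeR adjusted p = 0.32). Its Ponatinib samples were the higher ones.

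Per length of the canonical transcript, the members ranked in DMSO from IRS2 (9.84 normalised CPM per kilobase) through BCL6 (8.08), CCNG2 (7.71), FOXO3 (5.93), INSR (3.29), FOXO4 (1.99), FOXO1 (1.46), SESN1 (1.38) and SESN3 (0.903) to PIK3IP1 (0.473). Of these neighbours only FOXO1 and SESN1 overlapped between the 2 DMSO samples. With Ponatinib CCNG2 stood first at 26.7 normalised CPM per kilobase, FOXO1 came to 3.05, SESN3 to 2.60 and PIK3IP1 to 2.09. Of the 4 lowest in DMSO, FOXO1, SESN3 and PIK3IP1 rose by over 2-fold and SESN1 did not pass.

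**Figure D2:**
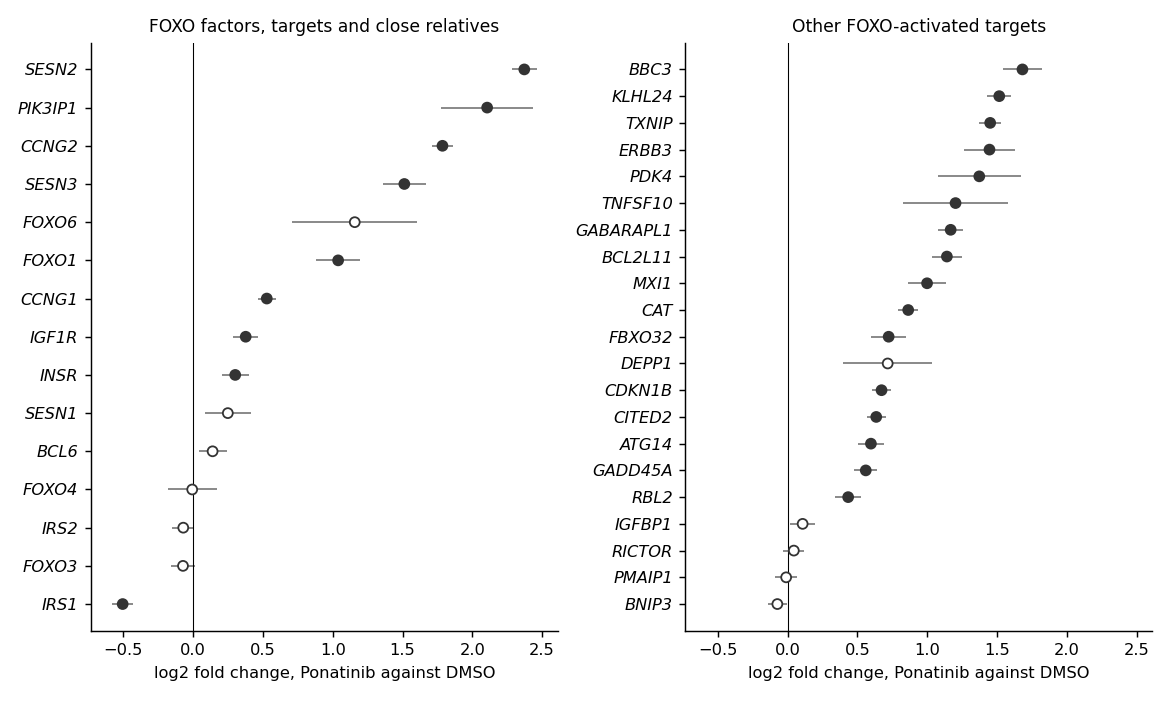
Log2 fold change of Ponatinib over DMSO from the edgeR fit, with 1 SE either side, for the 10 genes with their close relatives (left) and other FOXO-activated genes (right), filled where the adjusted p is under 0.05. Most points lie to the right of 0, SESN2 is the highest at 2.37, and IRS1 is the lowest at -0.50.

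Close relatives of the 10 genes split by gene. Of 6 listed, 5 were tested, and 3 rose and 1 fell (15.0% and 15.7% of all genes), with a median log2 fold change of 0.53. SESN2, the remaining sestrin, read 16.7 and 15.3 normalised CPM in DMSO and 82.3 and 84.1 with Ponatinib, a log2 fold change of 2.37 (SE 0.09, edgeR adjusted p = 5.9e-11), above that of every one of the 10 genes. SESN2 is also known as a target of the stress factors ATF4 and p53. CCNG1, which encodes cyclin G1, rose by less (log2 fold change 0.53, edgeR adjusted p = 1.4e-05), as did IGF1R, the receptor most like INSR (0.38, edgeR adjusted p = 0.0044). IRS1, the adaptor most like IRS2, read 173 and 162 normalised CPM in DMSO and 110 and 127 with Ponatinib, and fell by 0.50 on the log2 scale (edgeR adjusted p = 1.2e-04). FOXO6, at 4 to 16 counts, stood 1.16 higher on the log2 scale (edgeR adjusted p = 0.064), and BCL6B, at 0 to 1 counts, was not tested.

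A wider list of genes that FOXO factors are known to activate moved upwards. Of 21 tested, 16 rose, 0 fell and 5 did not pass, beside 15.0% of all genes that rose and 15.7% that fell. This list was chosen with earlier results of these data known, so the comparison with all genes is a description only. The median log2 fold change was 0.72, against -0.005 over all genes. The highest were BBC3, which encodes the death protein PUMA (log2 fold change 1.68, edgeR adjusted p = 3.3e-07), KLHL24, a ubiquitin ligase adaptor (1.52, edgeR adjusted p = 5.0e-09), TXNIP, an inhibitor of thioredoxin and of glucose uptake (1.45, edgeR adjusted p = 3.2e-09), the receptor ERBB3 (1.45, edgeR adjusted p = 3.2e-05) and PDK4, a brake on pyruvate oxidation (1.37, edgeR adjusted p = 0.0026). ERBB3 stood at 3.89 and 3.85 normalised CPM in DMSO and 10.2 and 11.1 with Ponatinib, and TXNIP at 51.1 and 43.5 against 130 and 129. Many of these genes answer to other regulators too, and which factor bound them was not measured. The GTAAACA core was in promoters of 4 of the 21 genes of this list with a promoter entry (TXNIP, BCL2L11, DEPP1 and MXI1, named for the match), beside 4.19% of all genes. Of those 4, 3 rose, as did 16 of the 21 tested on the list, DEPP1 being below the threshold (log2 fold change 0.72, edgeR adjusted p = 0.11). The remaining tested genes of the list that did not pass stayed near their DMSO levels. They were IGFBP1 (log2 fold change 0.11, edgeR adjusted p = 0.40), RICTOR (0.045, edgeR adjusted p = 0.70), PMAIP1 (-0.01, edgeR adjusted p = 0.94) and BNIP3 (-0.07, edgeR adjusted p = 0.46).

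The genes that FOXO factors are known to repress did not move together. CCND1, which encodes cyclin D1, read 971 and 970 normalised CPM in DMSO and 319 and 318 with Ponatinib, and fell by 1.61 on the log2 scale (SE 0.06, edgeR adjusted p = 4.6e-11). CCND2, which encodes cyclin D2, read 3.98 and 3.85 normalised CPM in DMSO and 22.8 and 24.9 with Ponatinib and rose by 2.60 on that scale (edgeR adjusted p = 9.6e-09). FOXM1, a cell-cycle forkhead factor, read 376 and 377 normalised CPM in DMSO and 365 and 380 with Ponatinib, and its groups overlapped (log2 fold change -0.02, edgeR adjusted p = 0.88).

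Of the kinases, phosphatases and adaptors of the PI3K-AKT pathway itself, 23 were tested, and 4 rose, 5 fell and 14 did not pass, with a median log2 fold change of -0.05. These shares are near the background of 15.0% of all genes that rose and 15.7% that fell. SGK1, an AKT-related kinase that also phosphorylates FOXO3, read 22.9 and 22.6 normalised CPM in DMSO and 8.94 and 8.98 with Ponatinib, and fell by 1.34 on the log2 scale (edgeR adjusted p = 1.8e-06). PIK3R3, a regulatory subunit of PI3K, rose by 0.71 (edgeR adjusted p = 7.2e-04). The calls for SGK1 and PIK3R3 held in all 9 other fits (other tools, filters, scalings and left-out samples). The calls for TSC2 (0.32) and TSC1 (0.29) upwards and for PHLPP2 (-0.42), GSK3A (-0.26) and AKT1 (-0.24) downwards on the log2 scale each failed in 1 to 4 of the 9.

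Among 17 genes for proteins that bind, move or modify FOXO factors, 4 rose, 4 fell and 9 did not pass, with a median log2 fold change of 0.04, beside 15.0% of all genes that rose and 15.7% that fell. SFN, the 14-3-3 sigma protein, read 73.8 and 71.4 normalised CPM in DMSO and 49.2 and 44.6 with Ponatinib, and fell by 0.62 on the log2 scale (edgeR adjusted p = 2.5e-05). SIRT1, a deacetylase of FOXO factors, read 53.0 and 51.8 normalised CPM in DMSO and 68.5 and 77.0 with Ponatinib (log2 fold change 0.47, edgeR adjusted p = 3.9e-04). The calls for SFN and SIRT1 held in all 9. The other 6, upwards for the nuclear exporter XPO1 (0.30), the coactivator CREBBP (0.26) and the ubiquitin ligase MDM2 (0.22) and downwards for YWHAG (-0.26), the deubiquitinase USP7 (-0.24) and YWHAH (-0.22), each failed in 1 to 4 of the 9. YWHAG and YWHAH encode further 14-3-3 proteins.

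**Figure D3:**
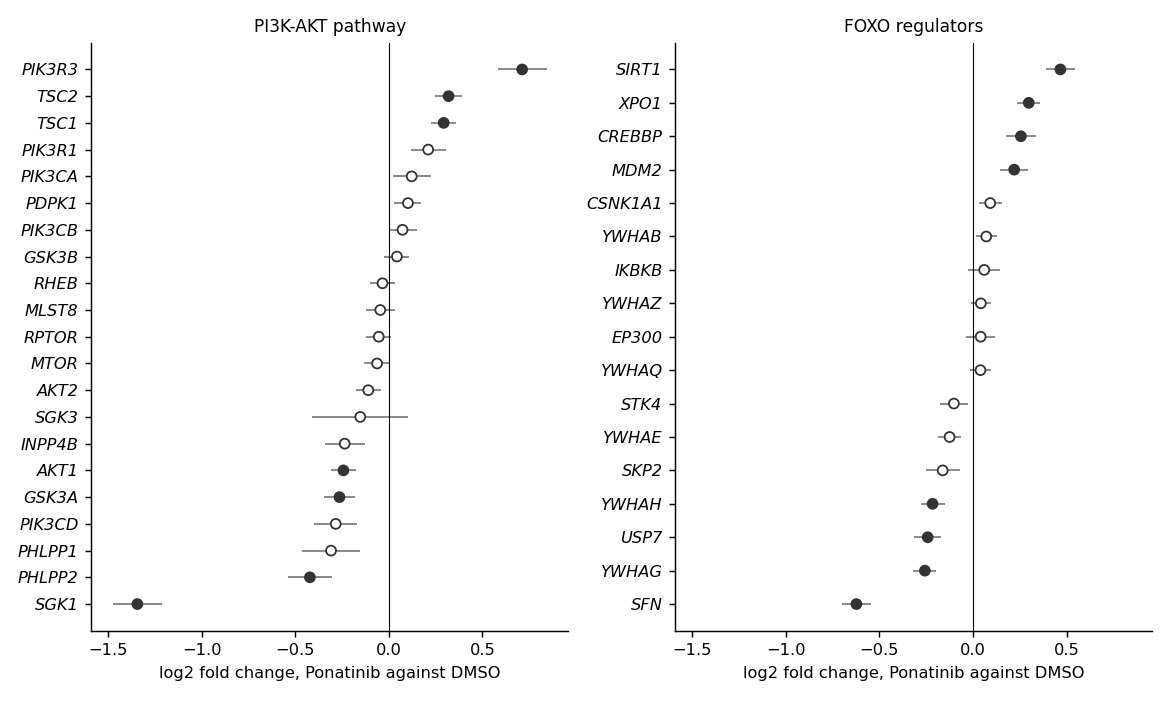
Log2 fold change of Ponatinib over DMSO from the edgeR fit, with 1 SE either side, for genes of the PI3K-AKT pathway and for regulators of FOXO factors, filled where the adjusted p is under 0.05. Most lie near 0, with SGK1 lowest at -1.34 and PIK3R3 highest at 0.71.

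In the knockdowns none of the 10 genes changed by more than 2-fold. The background over 2-fold in either direction was 8.67% of 16172 genes in the ABL1 knockdown, 7.64% in the ABL2 knockdown and 7.74% in the double knockdown. With 1 sample a group there is no test, and the 95% exact binomial intervals given here cover counting error only. The median log2 ratio to shCtrl over the 10 genes was -0.17, 0.01 and -0.38 in the same order. At a fold over 1.5, 2 were higher and 2 lower in the ABL1 knockdown (12.3% and 11.4% of all genes), 1 higher and 2 lower in the ABL2 knockdown (11.6% and 8.32%), and 0 higher and 3 lower in the double knockdown (11.9% and 9.54%).

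**Figure D4:**
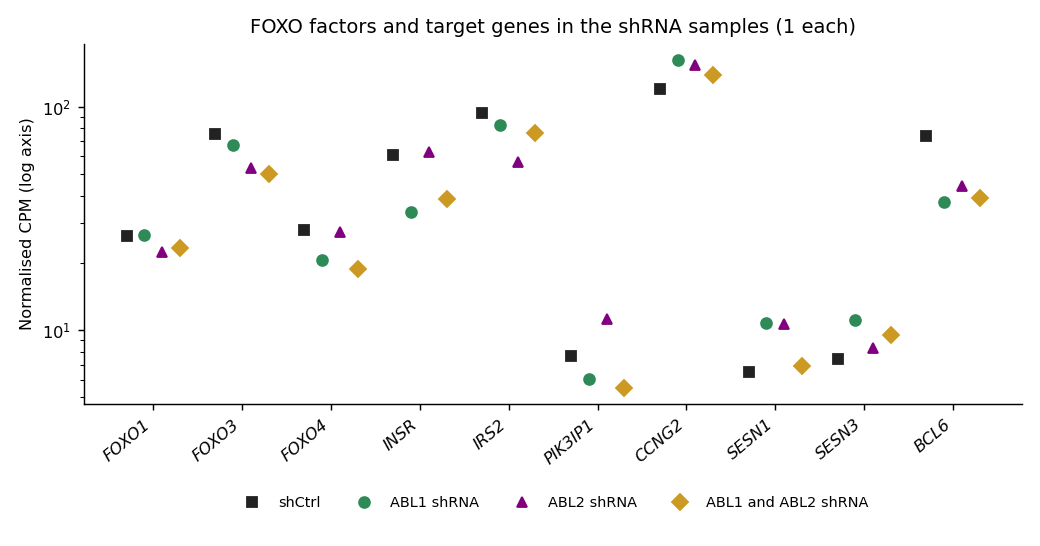
Normalised CPM (log axis) of the 10 genes in the shCtrl, ABL1 shRNA, ABL2 shRNA and double-knockdown samples, 1 point a sample. BCL6 is lower and CCNG2 higher in all 3 knockdowns than in shCtrl, and INSR is lower only where ABL1 shRNA was present.

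BCL6 moved the furthest. It stood at 73.8 normalised CPM in shCtrl, 37.4 in the ABL1 knockdown, 44.0 in the ABL2 knockdown and 38.8 in the double knockdown. The log2 ratios were -0.98 (95% interval -1.14 to -0.82), -0.75 (-0.90 to -0.59) and -0.93 (-1.10 to -0.76), so that the first came close to the 2-fold line. All 3 knockdowns were below shCtrl for BCL6, FOXO3, FOXO4 and IRS2, a position that 29.7% of all genes share, and all 3 were above it for CCNG2, SESN1 and SESN3, as were 29.5% of all genes. Because shCtrl is in all 3 ratios and stands apart from the other samples, these counts also carry that sample's own deviation.

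INSR was low where ABL1 shRNA was present. It stood at 60.8 normalised CPM in shCtrl and 62.6 with ABL2 shRNA, and at 33.8 with ABL1 shRNA and 38.5 with both. The log2 ratio was -0.85 (95% interval -1.02 to -0.67) with ABL1 shRNA and -0.66 (-0.83 to -0.49) with both. FOXO4 was also lower in the samples with ABL1 shRNA, at 28.1 normalised CPM in shCtrl, 20.5 in the ABL1 knockdown, 27.5 in the ABL2 knockdown and 18.8 in the double knockdown. BCL6 and PIK3IP1 too were lower in both samples with ABL1 shRNA than in the other two, which makes 4 of the 10 genes, against 23.4% of all genes.

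PIK3IP1 stood at 7.66 normalised CPM in shCtrl (87 counts), 6.02 in the ABL1 knockdown, 11.2 in the ABL2 knockdown and 5.52 in the double knockdown. The interval of its log2 ratio lay above 0 with ABL2 shRNA (0.55, 95% interval 0.16 to 0.95) and included 0 with ABL1 shRNA and with both.

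FOXO1, FOXO3 and IRS2 were lower in both samples with ABL2 shRNA than in shCtrl and ABL1 shRNA, an order that 16.3% of all genes share. FOXO3 stood at 75.5 normalised CPM in shCtrl, 67.3 in the ABL1 knockdown, 53.3 in the ABL2 knockdown and 50.0 in the double knockdown, with log2 ratios of -0.17, -0.50 and -0.60. IRS2 stood at 93.3, 82.8, 56.3 and 76.0 normalised CPM in that order, and was lowest with ABL2 shRNA alone (log2 ratio -0.73, 95% interval -0.87 to -0.59). FOXO1 varied least, at 26.5, 26.7, 22.3 and 23.2 normalised CPM, and its interval left 0 only with ABL2 shRNA (-0.25, 95% interval -0.49 to -0.01).

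CCNG2 was higher than shCtrl in each knockdown beyond counting error. It stood at 120 normalised CPM in shCtrl, 161 in the ABL1 knockdown, 153 in the ABL2 knockdown and 138 in the double knockdown, giving log2 ratios of 0.42, 0.35 and 0.21 with intervals above 0. SESN1 stood at 6.51, 10.8, 10.7 and 6.92 normalised CPM in the same order, so it was near shCtrl in the double knockdown (log2 ratio 0.09, 95% interval -0.38 to 0.56). SESN3 stood at 7.39, 11.1, 8.28 and 9.47 normalised CPM, and its interval lay above 0 only with ABL1 shRNA (0.59, 95% interval 0.19 to 1.00). The sestrins rest on 74 to 144 counts a sample.

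Among the relatives, CCNG1 stood at 57.3 normalised CPM in shCtrl, 113 in the ABL1 knockdown, 141 in the ABL2 knockdown and 114 in the double knockdown, over 2-fold only in the ABL2 knockdown. SESN2, the highest of the relatives with Ponatinib, stood at 16.0, 20.8, 22.4 and 19.8 normalised CPM. Of 22 other FOXO-activated genes tested in these samples, 10 were below shCtrl in all 3 knockdowns and 3 above it, beside 29.7% and 29.5% of all genes. The median log2 ratios of the list were -0.12, -0.31 and -0.22, against 0.002, -0.006 and 0.0 over all genes, and these values too share the shCtrl sample that stands apart. TXNIP was among those below, at 503 normalised CPM in shCtrl, 322 in the ABL1 knockdown, 226 in the ABL2 knockdown and 237 in the double knockdown. The FOXO-repressed genes did not move together here either. CCND1 stood at 545 normalised CPM in shCtrl and at 811, 784 and 790 in the knockdowns. FOXM1 was also higher, at 139 in shCtrl and 177, 189 and 234 in the knockdowns. CCND2 was lower, at 5.98 in shCtrl and 3.09, 5.25 and 3.29 in the knockdowns. SGK1 stood at 19.6, 20.3, 10.2 and 17.2 normalised CPM, lowest with ABL2 shRNA alone.

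Set side by side, the genes that passed with Ponatinib had these values in the double knockdown, which carries both hairpins. PIK3IP1 had a log2 fold change of 2.11 with Ponatinib and a log2 ratio of -0.47 (95% interval -0.96 to 0.00) with both hairpins. CCNG2 had 1.79 and 0.21, SESN3 had 1.51 and 0.36, FOXO1 had 1.04 and -0.19, and INSR had 0.30 and -0.66. Values of the same sign were thus seen for CCNG2 and SESN3, each smaller in the double knockdown. The SESN3 interval there included 0 (-0.06 to 0.78). Each target kept more mRNA in the double knockdown than with its own hairpin alone. For PIK3IP1, CCNG2, SESN3, FOXO1 and INSR in turn, the log2 ratios with ABL1 shRNA alone were -0.35, 0.42, 0.59, 0.01 and -0.85. With ABL2 shRNA alone they were 0.55, 0.35, 0.16, -0.25 and 0.04. BCL6 had 0.14 with Ponatinib, which did not pass, and -0.93 with both hairpins. Time, drug and hairpin differ between the experiments, and the residual ABL1 and ABL2 mRNA in the knockdowns is given above. ABL2 mRNA also fell with Ponatinib, from 335 and 306 normalised CPM in DMSO to 148 and 169 (log2 fold change -1.02, edgeR adjusted p = 8.6e-08). ABL1 mRNA was slightly higher with the drug (log2 fold change 0.19, edgeR adjusted p = 0.029). The difference between the responses was not tested.

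**Figure D5:**
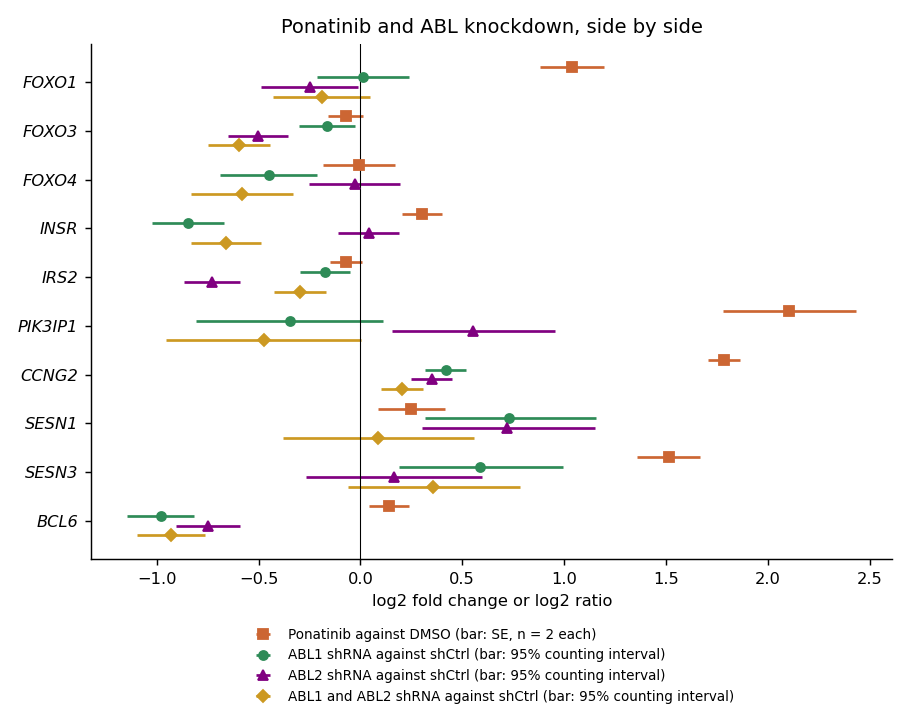
Log2 fold change with Ponatinib over DMSO (with 1 SE) beside the log2 ratio of each knockdown to shCtrl (with the 95% counting interval) for the 10 genes. PIK3IP1, CCNG2, SESN3 and FOXO1 lie above 1 with Ponatinib, and no knockdown value lies beyond 1 in either direction.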

How the data were processed

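RNA-seq of 8 LM2 samples was deposited by the authors as HTSeq counts of reads per gene, unnormalised. The submitters' processing notes name FastQC, TopHat, HTSeq 0.6.0 and hg38. Rows that name no gene occur only in the shRNA files (reads in no gene 9.48% to 9.90%, ambiguous reads 6.12% to 6.32%) and were left out.

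Ponatinib was compared with DMSO by edgeR 4.0.16 (R 4.3.3) quasi-likelihood tests with TMM scaling and filterByExpr, fitted on all 16031 genes kept. A check on simulated data used the same spread setting for every gene, so it does not cover spread that differs between genes. The shRNA samples, 1 a group, were compared by ratios of TMM-normalised CPM with Clopper-Pearson intervals. Alternatives were DESeq2 1.42.0 and its size factors, other filters and thresholds, a replicate block, leaving out each replicate, and total-count scaling. Named were all 10 members, their relatives and FOXO-repressed genes, and from each other list up to 5 genes that rose and 5 that fell, by size of change. The other FOXO-activated genes that were tested and did not pass with Ponatinib were named as well. The members and lists were chosen with earlier results of these data known. SOD2 was not matched and is not analysed here. Some genes of the lists are counted but not reported by name here.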

Additional observations from a re-analysis of the deposited data

How the results depend on the processing

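With Ponatinib, the calls for FOXO1, CCNG2, SESN3 and PIK3IP1 kept their direction and passed in all 9 other fits, whereas INSR failed in 2. Leaving out 1 sample gave 4 to 6 of the 10 genes, 15 to 16 other FOXO-activated genes, 4 to 11 PI3K-AKT genes, 3 to 10 regulators and 2800 to 5744 of all genes. The log2 fold change then ran from -0.141 to 0.015 for FOXO3, from -0.038 to 0.025 for FOXO4 (0.023 without Ponatinib replicate 1) and from -0.186 to 0.061 for IRS2, changing sign. INSR ran from 0.19 to 0.41, and DESeq2's Wald test gave it 0.31. The DESeq2 Wald test called 4 regulators and 2809 of all genes, against 8 and 4917. At a fold over 2 with unadjusted P under 0.05, the counts were 2 relatives, 8 other FOXO-activated genes, 1 PI3K-AKT gene, 0 regulators and 878 genes in all. Those 2 relatives were SESN2 and FOXO6, and FOXO6 had not passed the main test. TNFSF10, a low-count gene on the activated list, got no adjusted p from DESeq2 and failed in 3 other settings. The cause of these shifts was not tested.

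At a fold over 1.5 in place of 2, 4 of the 10 genes passed in the ABL1 knockdown, 3 in the ABL2 knockdown and 3 in the double knockdown. The shares of all genes higher and lower at that fold were 12.3% and 11.4%, 11.6% and 8.32%, and 11.9% and 9.54% in the same order. Total-count scaling, DESeq2 size factors and an edgeR fit of all 8 samples each left 0 over 2-fold.

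The repeat numbers of DMSO and Ponatinib were shared, but the deviations of same-numbered samples were unrelated (r = -0.02 over 9421 genes, taken as a description). With the replicate block 5 of the 10 genes passed, as did 4 relatives, 16 other FOXO-activated genes, 9 PI3K-AKT genes, 8 regulators and 4984 of all genes. The knockdowns have no pairs.

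Limits lie in the depth and number of samples. PIK3IP1 had 11 and 13 counts in DMSO, and no knockdown was repeated.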

Other observations

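Several listed genes were at the edge of detection. PIK3R2, which encodes a regulatory subunit of PI3K, had 0 to 2 counts in all 8 samples. FASLG had 0 counts in 6 samples and 5 counts each in the ABL1 shRNA and the double-knockdown samples. TRIM63, a ubiquitin ligase of muscle, had 30 counts in the ABL1 knockdown, 14 in the double knockdown, and 7 in each of the remaining shRNA samples. In these 2 genes the higher counts are in the samples with ABL1 shRNA. Both were named after their values were seen.

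MXI1, which encodes an antagonist of MYC, and CITED2, a transcriptional co-regulator, were named after their values were seen, as activated genes whose levels lay on opposite sides of control in the experiments. MXI1 read 13.6 normalised CPM in both DMSO samples and 24.1 and 31.0 with Ponatinib (log2 fold change 1.00, edgeR adjusted p = 5.2e-05), and 97.8 in shCtrl against 38.7 in the ABL1 knockdown, 63.0 in the ABL2 knockdown and 39.2 in the double knockdown. CITED2 read 99.6 and 109 normalised CPM in DMSO and 163 and 161 with Ponatinib (log2 fold change 0.64, edgeR adjusted p = 4.4e-06), and 178 in shCtrl against 103, 96.6 and 95.1 in the knockdowns. The difference between the experiments was not tested.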
